A study of Solanum lycopersicum with 2 samples.

Results

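Transcript levels of 8 MADS-box genes of tomato (Solanum lycopersicum) were compared between anthers and young leaves. The genes were chosen by identifier, and their names come from the definition of the set, since the files carry identifiers only. They are the SEPALLATA-type genes TM5 (Solyc05g015750), TM29 (Solyc02g089200), RIN (Solyc05g012020) and MBP21 (Solyc12g038510), the genes of the APETALA1/FRUITFULL group MC (Solyc05g056620), FUL1, also called TDR4 (Solyc06g069430), and FUL2, also called MBP7 (Solyc03g114830), and the SVP-type gene J, or JOINTLESS (Solyc11g010570). All 8 were found among the 25923 genes listed in either library. All 8 had an entry in anthers and 6 had one in leaves, where RIN and MBP21 had none and were taken as 0.

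MADS-box proteins are transcription factors that bind DNA as dimers and, in flowers, assemble into larger complexes. SEPALLATA proteins are the shared partners in these complexes: together with the class B and class C floral proteins they specify petals, stamens and carpels. FRUITFULL-type proteins act in the onset of flowering and in inflorescence meristems, and in tomato also in fruit ripening. SVP-type proteins are known in Arabidopsis as regulators of flowering time in leaves and shoot tips, and tomato J is needed for the abscission zone of the flower stalk.

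The anther library was made from anthers of several developmental stages and the leaf library from young leaves. Both tissues came from untreated plants of the cultivar Moneymaker, 8 weeks old, kept in a glasshouse with 16 h of light and 8 h of dark at 24 to 20 °C. Messenger RNA was profiled by MACE (massive analysis of cDNA ends), in which reads come from the last 500 bp before the poly-A tail and each transcript is meant to give 1 read. Read numbers were therefore not divided by length, and levels are given as reads per 1000000 mapped reads (RPM). Whether the listed region of each gene reaches its poly-A tail was not tested. This limits the comparison of levels between different genes of 1 library. There was 1 library per tissue, with no replicate check, so the tissues were compared without a test or p-value. The intervals below are 95% exact Poisson intervals and cover counting error only.

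The anther library held 12411606 mapped reads and 24538 listed genes, and the leaf library held 11534512 mapped reads and 22893 listed genes. Listed genes took 69.2% of the mapped reads in anther and 72.5% in leaf. In these libraries 1 read corresponds to 0.0806 RPM in anther and 0.0867 RPM in leaf. Tissue identity was described with short lists of identifiers that were taken from general knowledge of tomato genes. Neither the files nor the gene table used here pair them with names. The lists were chosen with earlier results of these data known, so they are no independent check. The 6 identifiers of the anther list (class B and class C floral genes and a pollen gene) lay between 146 and 936 RPM in anthers, against 1.47 to 11.9 RPM in leaves. The 3 identifiers of the leaf list (Rubisco small subunits) lay between 209 and 1709 RPM in anthers, against 1480 to 16047 RPM in leaves, and 2 of them were at least 2-fold higher in leaf. None of these markers was at 0 in either library. With whole organs, fewer cells that express a gene and less RNA per cell cannot be told apart.

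The SEPALLATA genes TM29 and TM5 were among the more abundant transcripts of the anther and were scarce in the leaf. TM29, which groups with SEP1 and SEP2 of Arabidopsis and is needed for normal flower and fruit development, had 389.7 RPM in anthers, from 4837.3 reads, against 3.55 RPM in leaves, from 41 reads. Its anther level was 110-fold that of the leaf, with a counting interval of 80.7 to 153. TM5, which groups with Arabidopsis SEP3 and is needed for the identity of the inner floral organs, had 274 RPM in anthers, from 3401.5 reads, against 2.77 RPM in leaves, from 32 reads. Its anther level was 98.8-fold that of the leaf, with a counting interval of 69.9 to 145. The leaf reads limit the precision of both ratios. Some read numbers were fractional (TM29, TM5 and FUL2 in anthers, FUL1 in leaves), and how such reads were divided among genes is not stated. TM29 ranked 220th and TM5 382nd of the 24538 genes listed in anthers, which places them in the highest 0.897% and 1.56%. In the leaf library they ranked 12092nd and 12844th of 22893, just below the middle of the list.

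**Figure D1:**
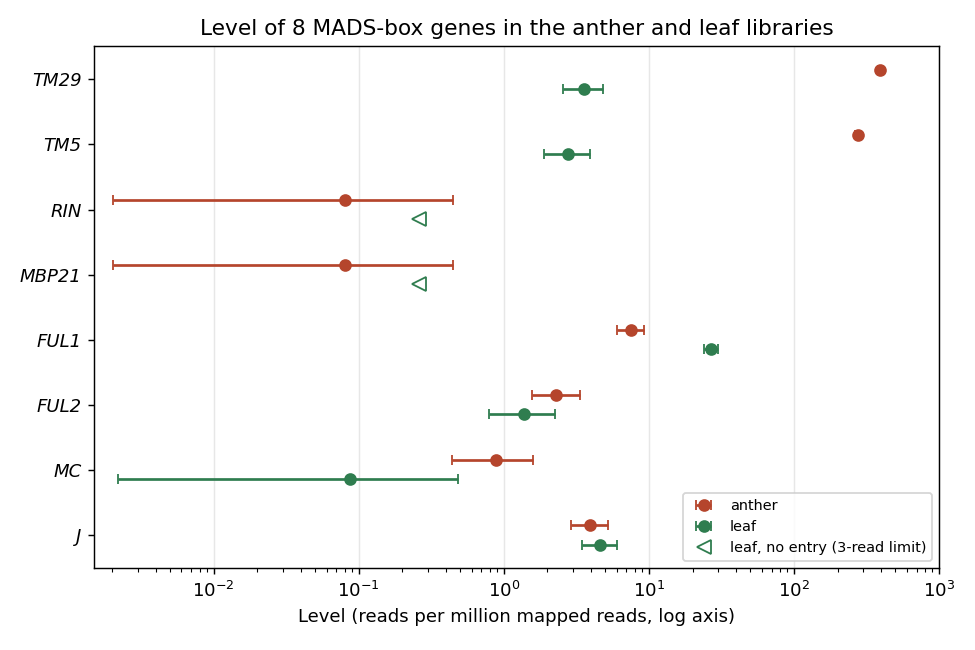
Level of each of the 8 genes in anthers (red, upper point) and in leaves (green, lower point), in reads per 1000000 on a log axis. Points are single libraries, bars are 95% exact Poisson intervals for counting error, and open triangles mark not an interval but the limit of 3 reads (0.260 RPM) where the leaf library had no entry. TM29 and TM5 stand near 390 and 274 RPM in anther, while FUL1 is the only one of the 8 whose leaf interval lies wholly above its anther interval.

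The other SEPALLATA genes of the set, RIN and MBP21, were at the limit of detection. Identifiers taken as further SEPALLATA types are in the list of 12 given below and are not meant here. RIN, the regulator of fruit ripening, had 1 read in anthers and no entry in leaves. MBP21, which acts in the abscission zone of the flower stalk, likewise had 1 read in anthers and no entry in leaves. A single read corresponds to 0.0806 RPM with an interval of 0.00204 to 0.449 RPM. A count of 0 in leaves allows a level of up to 0.260 RPM by a limit of 3 reads. The exact Poisson interval used for the order of levels ends a little higher, at 0.320 RPM. At this depth no difference between the tissues was detectable for either gene, and no fold is given. The 4 SEPALLATA genes of the set together had 664 RPM in anthers (interval 650 to 678) and 6.33 RPM in leaves (4.96 to 7.96), nearly all of it from TM29 and TM5.

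A change in the proportion of TM29 to TM5 between the tissues was not detectable at this depth. TM29 had 1.42 reads per read of TM5 in anthers and 1.28 in leaves. The ratio of these proportions, anther over leaf, was 1.11, with an exact conditional interval of 0.675 to 1.81, so with 73 leaf reads in all neither equal proportions nor a shift within that interval could be told apart. Within anthers the counting intervals of TM29 (379 to 401 RPM) and TM5 (265 to 283 RPM) did not overlap. Within leaves they did (2.55 to 4.82 RPM and 1.90 to 3.92 RPM).

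The leaf level was 0.912% of the anther level for TM29 and 1.01% for TM5. The 6 identifiers of the anther list showed leaf levels of 0.499% to 8.16% of their anther levels, with a median of 0.768%, and in sum 1.17%. Of these 6 identifiers, 5 had leaf levels under 2% of their anther levels, as TM29 and TM5 had, while the remaining one stood at 8.16%. Why such transcripts, TM29 and TM5 included, were found in leaves was not tested. Lower fractions occurred: of the 1229 genes with at least 100 RPM in anthers, 71 had a smaller leaf fraction than TM29, and the smallest was 0.0725%.

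The FRUITFULL genes did not share the pattern of TM29 and TM5. FUL1, a regulator of fruit ripening, had 7.49 RPM in anthers, from 93 reads, against 26.7 RPM in leaves, from 308 reads. Its leaf level was 3.56-fold that of the anther, with a counting interval of 2.82 to 4.54. FUL1 ranked 10232nd of the genes listed in anthers and 4471st in leaves, the highest rank of the 8 genes in leaf. FUL2, the closest paralog of FUL1 in the set and also a regulator of ripening, had 2.30 RPM in anthers, from 28.5 reads, against 1.39 RPM in leaves, from 16 reads. Its anther level was 1.66-fold that of the leaf, and the counting interval of 0.885 to 3.32 includes equal levels.

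The proportion of the FRUITFULL paralogs FUL1 and FUL2 differed between the libraries by more than the counting error of reads. FUL1 had 3.26 reads per read of FUL2 in anthers and 19.3 in leaves. The leaf proportion was 5.90 times the anther proportion, with an exact conditional interval of 2.99 to 12.3. The interval holds counting error only, and whether plants differ in this proportion cannot be seen with 1 library per tissue.

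MC, or MACROCALYX, an APETALA1-type gene that acts in sepal growth and in the flower stalk's abscission zone, was near the limit of detection. It had 0.886 RPM in anthers, from 11 reads, and 0.0867 RPM in leaves, from 1 read. The anther level was 10.2-fold that of the leaf, with a counting interval of 1.49 to 440.0, so the size of the difference was poorly determined. The 3 genes of the APETALA1/FRUITFULL group together had 10.7 RPM in anthers (8.97 to 12.7) and 28.2 RPM in leaves (25.2 to 31.4), mostly from FUL1.

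J was at a similar low level in both tissues. It had 3.95 RPM in anthers, from 49 reads, and 4.59 RPM in leaves, from 53 reads. The anther level was 0.859-fold that of the leaf, with a counting interval of 0.571 to 1.29, which does not reach a 2-fold difference in either direction. J lay close to the middle of the genes listed, at rank 12616 in anthers and 11322 in leaves. Measured against J, FUL1 was 1.90 times as abundant in anthers and 5.81 times as abundant in leaves, and the leaf proportion was 3.06 times the anther proportion (interval 1.89 to 4.93).

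The order of the 8 genes therefore differed between the tissues. In the anther library it ran TM29, TM5, FUL1, J, FUL2 and MC, with RIN and MBP21 last. The step from TM5 to FUL1 was 36.6-fold. The intervals of J and FUL2, of FUL2 and MC, and of MC and the last pair overlapped. The exact conditional interval of the ratio of neighbours, a comparison chosen after seeing the data, nevertheless lay above 1 for J over FUL2 (1.05 to 2.77), FUL2 over MC (1.28 to 5.85) and MC over either of the last pair (1.60 to 473), so RIN and MBP21 alone were not separated. In the leaf library the order ran FUL1, J, TM29, TM5, FUL2 and MC. FUL1 stood apart from J, and FUL2 from MC, while the intervals of J and TM29, of TM29 and TM5, and of TM5 and FUL2 overlapped. The interval of the ratio included 1 for J over TM29 (0.844 to 1.99) and TM29 over TM5 (0.787 to 2.10), but not for TM5 over FUL2 (1.07 to 3.90).

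As a set the 8 genes gave 679 RPM in anthers (664 to 693) and 39.1 RPM in leaves (35.6 to 42.9). TM29 supplied 57.4% of their reads in anthers and 9.09% in leaves. TM5 supplied 40.4% in anthers and 7.10% in leaves. FUL1 supplied 1.10% in anthers and 68.3% in leaves, and J supplied 0.582% in anthers and 11.8% in leaves. The 6 genes other than TM29 and TM5 together had 14.8 RPM in anthers and 32.8 RPM in leaves, so without these SEPALLATA genes the set leaned towards the leaf. That leaning rests on FUL1, with 308 of the 378 leaf reads.

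**Figure D2:**
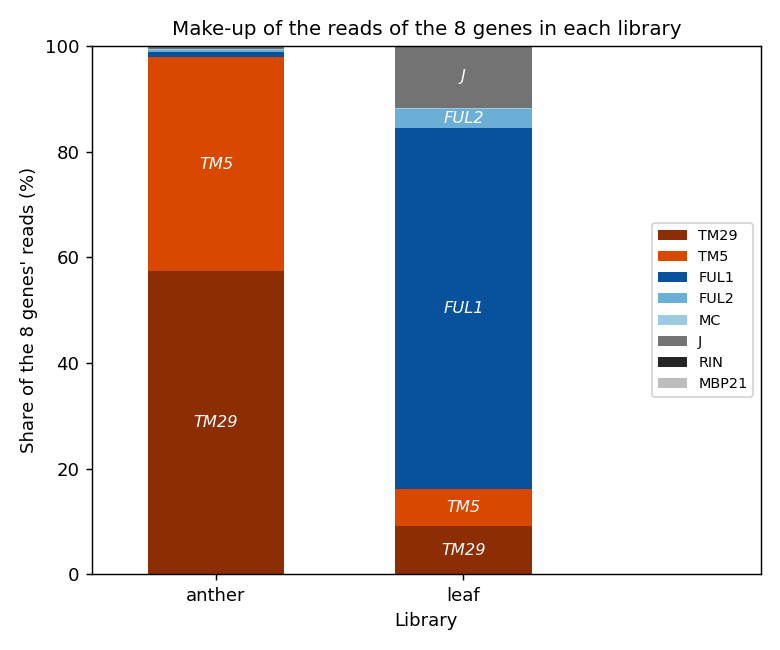
Share of the reads of the 8 genes (percent of their sum, vertical axis) taken by each gene in anthers and in leaves; each bar is 1 library and sums to 100%. TM29 and TM5 make up 97.8% of the anther bar, while FUL1 makes up 68.3% of the leaf bar.

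The genes were also placed among all genes that averaged 1 RPM or more over the libraries, by log2((anther RPM + 1) / (leaf RPM + 1)), a scale that understates the change of low genes. Of the 8 genes 5 passed this filter, and RIN, MBP21 and MC did not. These 5 were above 1 RPM in both libraries. Of the 5, TM29 and TM5 were at least 2-fold higher in anther, against 21.5% of the 17137 genes tested. FUL1 alone was at least 2-fold higher in leaf, against 17.5% of the genes tested. The log2 ratio was 6.42 for TM29, 6.19 for TM5, 0.47 for FUL2, -0.18 for J and -1.71 for FUL1. The median of these 5 values was 0.47, beside a median of 0.15 over all genes tested.

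TM29 and TM5 were the 66th and 78th of the 17137 genes from the anther end of this order, in the outermost 0.385% and 0.455%. Abundant anther genes often leaned to the anther: of the 220 genes at or above the anther level of TM29, 60.9% were at least 2-fold higher in anther, and 45 had a log2 ratio at least as high as that of TM29. These genes were picked by their anther level, which enters the ratio, so part of this leaning is built in. FUL1 lay less far out, with 9.35% of the genes tested at least as far towards the leaf.

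**Figure D3:**
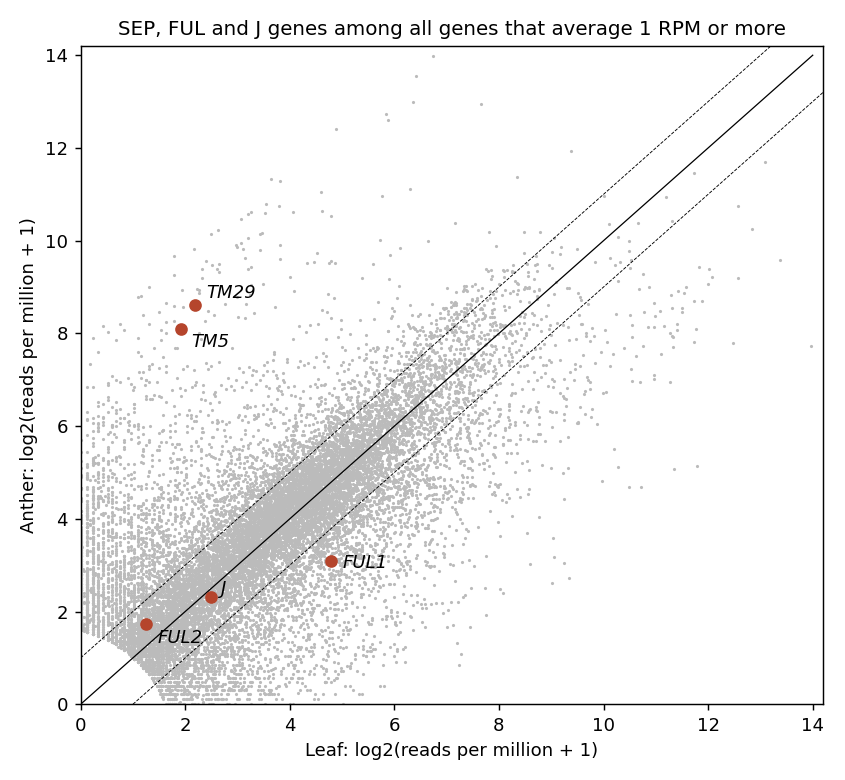
Leaf level (horizontal axis) against anther level (vertical axis), both as log2(reads per 1000000 + 1), for the 17137 genes that averaged 1 RPM or more (grey) and the 5 members among them (red). The solid line marks equal levels and the dashed lines a log2 ratio of 1 in either direction. TM29 and TM5 lie far above the upper dashed line, FUL1 lies below the lower one, and J and FUL2 lie between.

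A list of 12 further identifiers, taken as stamen- and carpel-identity, AGL6, SEPALLATA and FRUITFULL types of the MADS-box family from general knowledge and not named in the files, was set beside the members. All 12 had entries in both libraries and 10 averaged 1 RPM or more. Of these 10, 4 reached 1 RPM in the anther library alone, so the filter fixed their direction, though not a 2-fold difference. Of the 17137 genes tested, 1788 likewise reached it in the anther library alone. All 10 were at least 2-fold higher in anther and 0 in leaf, beside 21.5% and 17.5% of all genes tested. These 10 include the 6 that were above 1 RPM in both libraries. The 10 log2 ratios ran from 1.54 to 6.97 with a median of 4.79, beside 0.15 over all genes. The list was drawn up mostly from genes of floral organs and holds 5 of the 6 identifiers of the anther list above, so its direction is no independent yardstick for FUL1, J and FUL2.

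**Figure D4:**
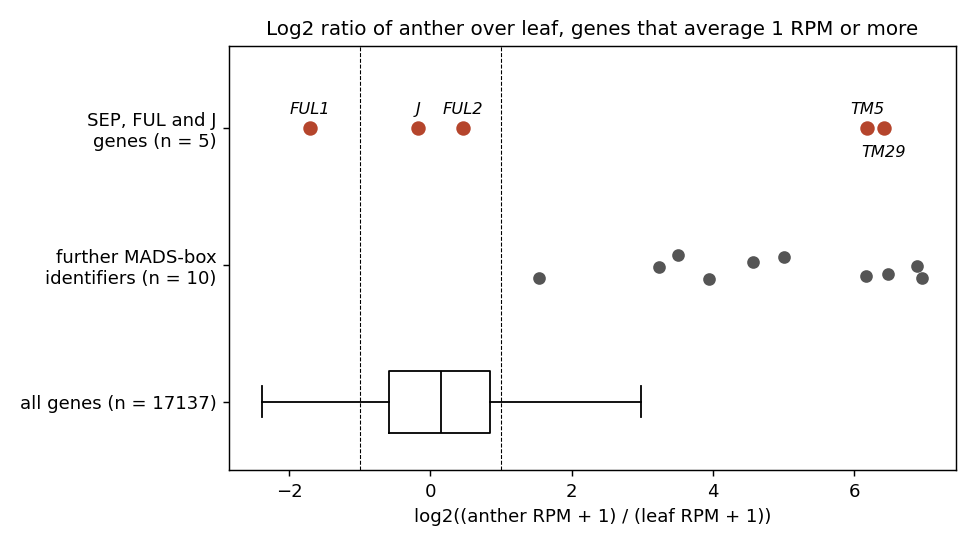
Log2 ratio of anther over leaf (horizontal axis) for the 5 members that passed the filter, the 10 further MADS-box identifiers that passed it, and all 17137 genes tested. Points are genes, the box spans the quartiles with the median as a line, the whiskers reach the percentiles 5 and 95, and dashed lines mark -1 and 1. The further identifiers run from 1.54 to 6.97, and the members from -1.71 (FUL1) to 6.42 (TM29).

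By the distance of log2(RPM + 1) over the 2 libraries, the gene most like TM5 was Solyc02g071730.2, with 305 RPM in anthers and 2.43 RPM in leaves (distance 0.21). That identifier is also on the anther list and among the 12 further MADS-box identifiers above. The gene most like TM29 was Solyc01g090350.2, with 379 RPM in anthers and 2.86 RPM in leaves (distance 0.24). The gene most like FUL1 was Solyc02g070560.2, with 7.33 RPM in anthers and 25.9 RPM in leaves (distance 0.05). With only 2 libraries such likeness is loose, and for the low genes FUL2 and J it says little, so none is named.

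The genes lie on 6 chromosomes as the files give them: RIN, TM5 and MC on chromosome 5, TM29 on 2, FUL2 on 3, FUL1 on 6, J on 11 and MBP21 on 12. The listed genes just before and just after each member in identifier order (15 genes, since MC was the last listed gene of its chromosome) included 10 that averaged 1 RPM or more. Of these, 3 were at least 2-fold higher in anther and 2 in leaf, beside 21.5% and 17.5% of all genes tested. With only 10 genes, a difference from these shares could not be told. Among the 3, the neighbours after TM29 and after FUL2 belong to the 12 further identifiers and are counted there too, which makes 2 of the 3. Both listed neighbours of TM29, on its strand, leaned the same way as TM29: the one before it had 13.1 RPM in anthers and 0.954 RPM in leaves, and the one after it had 37.0 RPM in anthers and 0.607 RPM in leaves. Both were under 1 RPM in leaves, so the filter fixed their direction. The neighbour before FUL1, on the strand of FUL1, leaned towards the leaf as FUL1 did, with 2.01 RPM in anthers and 12.3 RPM in leaves. The neighbour after FUL1 did not, with 28.1 RPM in anthers and 33.6 RPM in leaves. The neighbours of TM5 had at most 0.824 RPM in either library. The neighbour after FUL2 had 4.91 RPM in anthers and 1.04 RPM in leaves. The neighbour before J, on the other strand, had 4.19 RPM in anthers and 17.3 RPM in leaves, unlike J itself.

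The files also give the height of the highest read peak of each gene, a value whose computation the headers do not state. The peak height divided by the gene's reads was close between the tissues for the members with at least 10 reads in both libraries. It was 24.5% in anthers and 22.0% in leaves for TM29, and 27.8% in anthers and 31.3% in leaves for TM5. FUL1 had 22.0% in anthers and 23.2% in leaves, and FUL2 had 31.6% in anthers and 31.3% in leaves. J had the most concentrated reads, with 55.1% in anthers and 49.1% in leaves. Over these 5 genes the median absolute difference was 2.50 percentage points and the largest 6.05, beside a median of 3.15 points over 14889 genes that met the same minimum and had a peak no higher than their reads. The peaks alone gave 122-fold for TM29, 87.9-fold for TM5, 1.67-fold for FUL2 and 0.965-fold for J, anther over leaf per mapped read, and 3.75-fold for FUL1, leaf over anther. These folds rest on low peaks. The heights in leaves were 9 for TM29, 10 for TM5, 5 for FUL2 and 26 for J, and FUL1 had 20.5 in anthers. No interval was computed for the heights. They come from the same libraries as the reads, so they are no independent check.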

How the data were processed

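Per the file headers, each deposited file gives estimated counts of reads per gene (all hits), the number of mapped reads, a value called transcripts per 1000000 and the height of the highest peak. The deposited transcripts value equalled the count divided by mapped reads times 1000000 within 3.42e-08, so it is called RPM; the authors applied no length correction. The peak height is a deposited signal. FastQC was used per the submitters' processing notes, which give no version; for the aligner, counter, build and annotation, nothing is given in the sources used here. Estimated counts were fractional for 20.8% of anther and 19.5% of leaf genes.

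Genes absent from a file were taken as 0. Filter (an average of 1 RPM or more), pseudocount (1 RPM) and 2-fold rule (log2 ratio of at least 1) applied to all genes. No test across tissues was possible with 1 library each. Counts were rounded for exact Poisson, conditional (Clopper-Pearson) and conditional odds-ratio intervals at 95% (Python 3.11.15, scipy 1.17.1). Reads carry no molecular identifiers named in the sources, so copies of 1 molecule cannot be told from separate molecules. Intervals and the 3-read floor cover the counting error of reads only, and may be too narrow for molecules. TMM factors came from edgeR 4.0.16 and were used as an alternative scaling. The 2-fold rule and the interval of the anther over leaf ratio were tested on simulated whole-number counts. Changed genes were simulated only at average levels above those of all members other than TM29 and TM5. The Poisson, share and odds-ratio intervals, and fractional counts, were not tested this way. Of the 8 members, 7 matched a symbol or synonym in a RefSeq table of assembly SLM_r2.1, all 7 on the chromosome the files give. The genes named are the members and, by a rule on likeness of level, 3 identifiers. The members and lists were chosen with earlier results of these data known. Age and growth conditions come from the labels.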

Additional observations from a re-analysis of the deposited data

How the results depend on the processing

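A pseudocount or a filter cannot change the direction of a log2 ratio, so only the alternative scalings could. Under the alternative scalings TM29, TM5, FUL1, FUL2 and J kept their direction. For FUL2 and J the counting intervals of the ratio include equal levels, so their direction was not determined. FUL2 and J averaged under 10 RPM and gave no value under that filter. A pseudocount of 5 RPM moved TM29 to 5.53, TM5 to 5.17 and FUL1 to -1.34. At a 4-fold rule 0 members were higher in leaf, since FUL1 lay between 2- and 4-fold. The counts over all genes, 3690 higher in anther and 3006 in leaf, became 2261 and 1970 with a pseudocount of 5 RPM, 1782 and 1799 among genes averaging 10 RPM or more, and 1710 and 1228 at the 4-fold rule. TMM scaling moved the median log2 ratio of all genes from 0.148 to 0.019, and setting the median ratio to 1 moved it to 0.016. The majority of calls then turned to the leaf, with 3282 higher in anther and 3349 in leaf under TMM, and 3279 and 3358 with the median ratio set to 1. Under these scalings FUL2 had 0.373 and 0.371, and J -0.29 and -0.30. Scaled to the reads on listed genes, the members summed to 980.4 reads per 1000000 in anthers and 53.9 in leaves. The 4 members with whole-number counts (MC, J, RIN and MBP21) summed to 4.995 RPM in anthers and 4.68 RPM in leaves. By peak height the shares in anthers were 53.9% for TM29, 43.1% for TM5, 1.23% for J and 0.274% for MC, and in leaves 58.4% for FUL1 and 21.2% for J. FUL1 and J changed places in the anther order, with heights of 20.5 and 27. TM29 and TM5 changed places in the leaf order, with heights of 9 and 10. No interval was computed for the heights, so neither change of place was shown to exceed counting error. By the interval of the ratio of neighbours, chosen after seeing the data, 6 of the neighbouring pairs of the anther order were separated and not 3, and in leaves 3 and not 2. The causes were not tested. RIN, MBP21 and MC gave values without the filter only. No paired analysis was possible because there was 1 library for each tissue, and for the same reason no replicate was left out. Depth limits RIN, MBP21 and MC, with at most 11 reads in a library.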

Other observations

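In the RefSeq table of assembly SLM_r2.1, RIN and MC are separate genes on chromosome 5 with a joined entry, MADS-RIN-MADS-MC, between them in the order of starts. In the identifier numbers of the deposited files they are far apart, with 1224 listed genes of chromosome 5 numbered between RIN and MC. RIN had 1 read in anthers and no entry in leaves, and MC had 11 reads in anthers and 1 read in leaves, so the levels say little about either arrangement.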
